A study of Saccharomyces cerevisiae BY4741 with 24 samples.

Results

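The small subunit processome is the large particle in the nucleolus that folds, modifies and cuts the precursor of the 18S ribosomal RNA, the first stage in the making of the 40S ribosomal subunit. It forms on the new transcript in blocks. The UTP-A subcomplex binds the 5′ end of the transcript first, the UTP-B subcomplex and the U3 particle, a small nucleolar RNA with its proteins, follow, and single factors, a GTPase, a methyltransferase and RNA helicases complete and remodel the particle. In budding yeast the genes for these factors belong to the ribosome biogenesis regulon, which is known to be transcribed in growing cells and turned down when nutrients are short. The 42 genes described here are those of a fixed list of processome factors, found by their gene symbol in the annotation of the arrays among 5449 genes of Saccharomyces cerevisiae. They comprise 7 genes of UTP-A, 6 of UTP-B, 5 for U3 snoRNP proteins, 3 of the Mpp10 complex, 14 single assembly factors, 4 RNA helicases, and BMS1, RCL1 and EMG1.

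All samples were cultures of BY4741, a haploid strain used in laboratories and of mating type a, in rich YPD medium at 30 °C. The control medium held 2% glucose and the restricted medium 0.5% glucose, the form of caloric restriction that the study set out to follow. Cells were harvested 12, 18, 24 and 48 h after inoculation, which gives 8 groups of 3 arrays (24 Affymetrix Yeast Genome 2.0 arrays), described in the study design as biological triplicates. The labels name no further mutation or agent. All groups share the auxotrophic marker genes that carry deletions in BY4741. Of these URA3 (1.21 to 1.64 over the 24 arrays), LEU2 (1.65 to 2.72) and MET17 (1.77 to 2.18) were at or near background, and HIS3 (4.69 to 5.44) was not. Of the genes specific to mating type a, MFA1 stood at 6.75 to 10.07. The 3 measured genes specific to type α were not all at background. STE3 (median 4.85) was above the background level of 2.29 on all 24 arrays, MF(ALPHA)1 (median 3.12) on 20 and MF(ALPHA)2 (median 2.19) on 11.

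Levels are log2 values as deposited, and they compare one gene between arrays but not one gene with another. Each of the 42 genes was measured by 1 probe set, and all 42 lay above the background of 2.29 on every array, with a lowest value of 2.61. That background is the 95th percentile of 1746 probe sets for Schizosaccharomyces pombe on the same arrays. The 12 fission yeast probe sets that carry the names of processome genes lay between 1.22 and 2.05. A change is the difference of 2 group means, given ± its standard error with 3 arrays in each group, and is called where limma's p, adjusted over all 5449 genes, was under 0.05. The arrays had been brought to 1 common distribution before deposition, so a change is measured against the rest of the transcripts on an array. In a culture, less RNA from a gene in every cell and fewer cells that transcribe it cannot be told apart.

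Some facts of the whole set touch the values that follow. The poly-A spike-ins, bacterial transcripts added to the RNA, were lower in 0.5% than in 2% glucose by 0.402 ± 0.114 at 12 h and higher by 0.49 ± 0.165 at 48 h. On a scale set by them the median of all genes moved to 0.348 and -0.409. Counts of genes higher or lower on this scale are given below without a share of all genes. They cannot be set against the shares given for the deposited values, and alone they do not set the processome genes apart from all genes. The 3′ minus 5′ difference of the ACT1 control probe sets, a measure of RNA integrity, was 1.45 to 1.54 on the 3 arrays of 0.5% glucose at 48 h. In the other 7 groups it lay between 0.56 and 0.85. Of all 7 yeast pairs of 3′ and 5′ control probe sets, 3 (ACT1, TDH1 and WBP1) had these 3 arrays above the other 21, while EAF5, SPT15, SRB4 and RIP1 overlapped with the other groups. Among the 3 arrays of 0.5% glucose at 48 h, replicate 3 was the lowest for all 42 processome genes, against 35.7% of all genes. The part of RNA integrity and of replicate 3 in the results was not tested beyond the values without that replicate.

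The median level of the 42 genes was 5.05, 5.46, 5.40 and 5.59 at 12, 18, 24 and 48 h in 2% glucose. In 0.5% glucose it was 5.42, 5.38 and 5.43 at 12, 18 and 24 h, and 6.94 at 48 h. Restricted cultures at 48 h thus stood apart from all other groups. In 36 of the 42 genes all 3 arrays of 0.5% glucose at 48 h lay above the other 21 arrays (30.6% of all genes). At the other end, in 24 of the 42 genes all 3 arrays of 2% glucose at 12 h lay below the other 21 (9.73% of all genes). By group means, 40 genes had their highest level in 0.5% glucose at 48 h and 30 had their lowest in 2% glucose at 12 h. The exceptions at the top were NOP56, highest in 2% glucose at 24 h, and UTP10, highest in 2% glucose at 48 h.

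**Figure D1:**
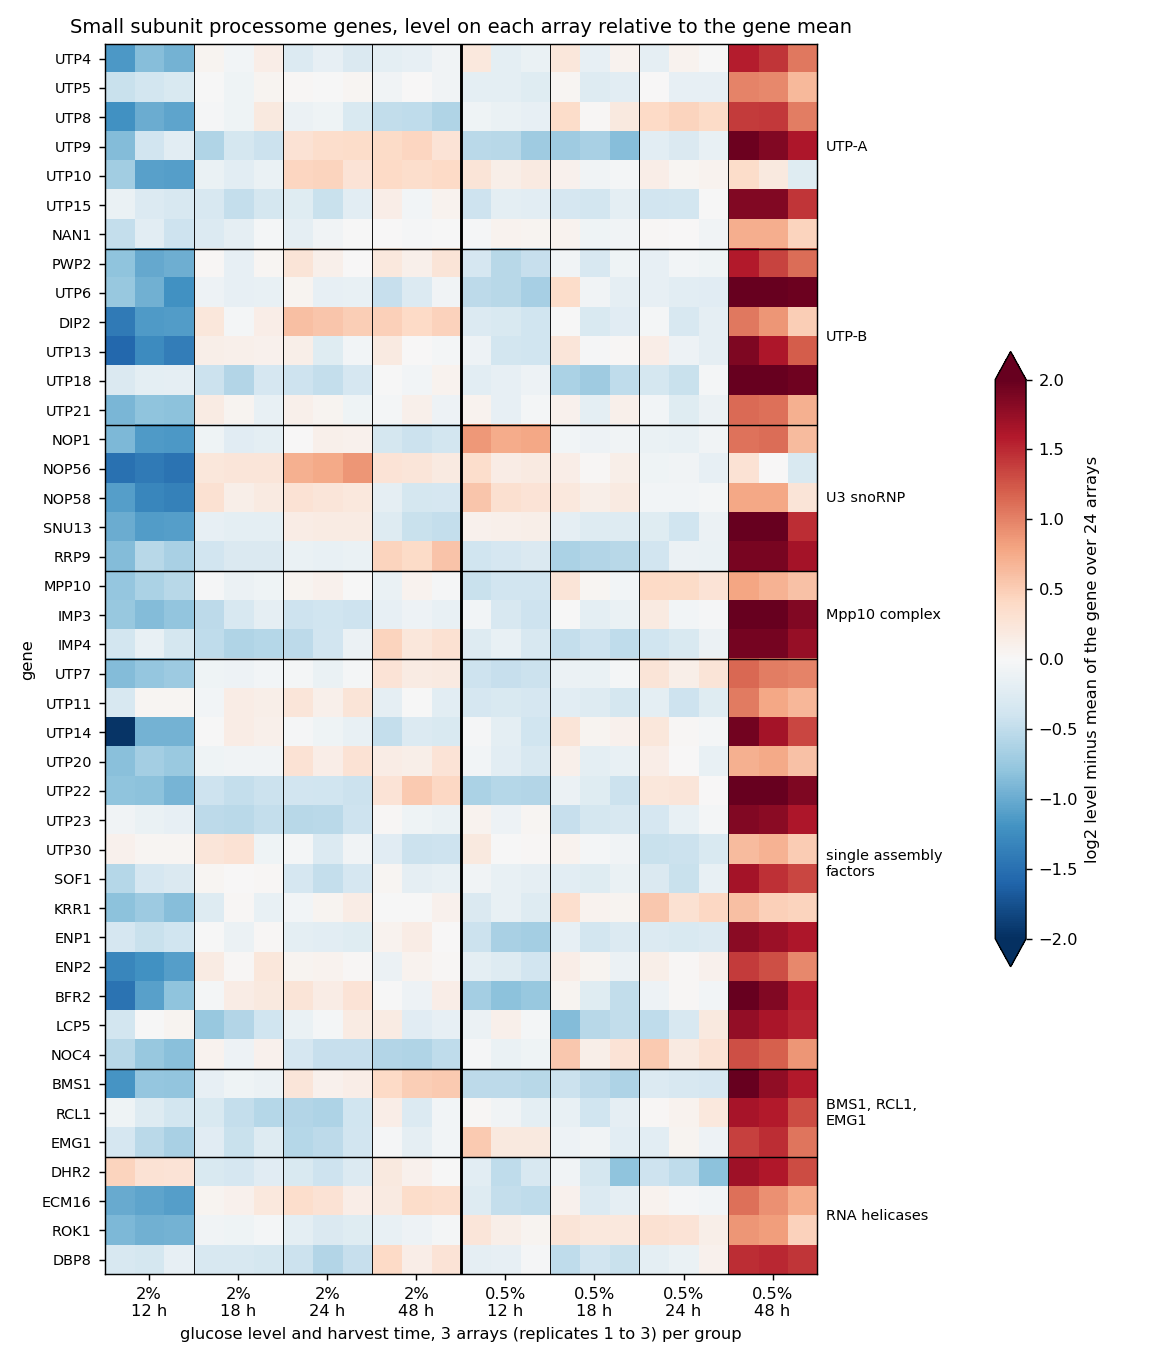
Log2 level of each of the 42 processome genes (rows, in blocks by subcomplex) on each of the 24 arrays (columns, replicates 1 to 3 within a group), minus the mean of that gene over all arrays, with the colour scale cut at 2 on either side. The 3 columns of 0.5% glucose at 48 h are above the gene mean in nearly every row, with UTP10 and NOP56 as the pale rows, and the 3 columns of 2% glucose at 12 h are mostly below it.

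The glucose levels were first compared at 12 h, about the time from which, in the study design, restricted cells gained their longevity. At this time 29 of the 42 genes were higher in 0.5% glucose and 3 lower (background 32.2% higher and 41.2% lower), with a median of 0.40 against -0.05 for all genes. Higher by at least 2-fold were 8 genes (background 5.58%). The spike-in scale gave 33 genes higher and 0 lower, with a median of 0.80 against 0.35 for all genes on that scale.

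The U3 snoRNP proteins led the difference at 12 h, and all 5 were higher. NOP1 (YDL014W), the yeast fibrillarin that methylates ribosomal RNA within box C/D particles, stood at 5.82, 5.58 and 5.56 in 2% glucose and at 7.59, 7.45 and 7.49 in 0.5% glucose. The groups were far apart, and the difference was 1.86 ± 0.09, or 3.62-fold (limma, adjusted p = 4.35e-14). NOP56 (YLR197W), a scaffold protein of the same particles, stood at 5.95, 6.02 and 5.97 against 7.79, 7.59 and 7.62, a difference of 1.69 ± 0.09. NOP58 (YOR310C), its partner in the scaffold, stood at 5.92, 5.72 and 5.68 against 7.58, 7.34 and 7.30, a difference of 1.63 ± 0.10. These 3 proteins serve all box C/D particles and not the U3 particle alone. SNU13 (YEL026W), which binds the bend in the RNA and is also a spliceosome protein, stood at 6.24, 6.11 and 6.13 against 7.31, 7.33 and 7.33, a difference of 1.17 ± 0.11. RRP9, the protein found only with U3, differed by 0.35 ± 0.08, under the median of 0.40 for the 42 genes.

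In the UTP-A subcomplex 4 of 7 genes were higher at 12 h and 0 lower. UTP10 (YJL109C), its largest protein, led with 6.01, 5.63 and 5.62 in 2% glucose and 6.97, 6.83 and 6.89 in 0.5% glucose, a difference of 1.14 ± 0.11. UTP8 differed by 0.96 ± 0.10 and UTP4 by 0.94 ± 0.12. UTP15 and UTP9, at -0.04 ± 0.11 and -0.12 ± 0.12, and UTP5 at 0.16 ± 0.08 did not pass the test. In UTP-B 5 of 6 genes were higher, with UTP13 at 1.12 ± 0.13, DIP2 at 0.90 ± 0.11 and UTP21 at 0.80 ± 0.11, while UTP18 at 0.07 ± 0.09 did not pass. Both subcomplexes thus held genes with a difference near 2-fold beside genes whose arrays overlapped between the glucose levels.

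The remaining factors were more mixed at 12 h. UTP14 (YML093W), which activates the helicase Ecm16, stood at 3.40, 4.41 and 4.41 in 2% glucose and at 5.34, 5.16 and 4.97 in 0.5% glucose. Its replicate 1 in 2% glucose lay about 1 log2 unit below the other two, and the difference was 1.09 ± 0.18. ENP2, a partner of Bfr2, differed by 0.93 ± 0.09, and EMG1, which methylates a pseudouridine of the 18S RNA, by 0.82 ± 0.10. ROK1 (YGL171W), a DEAD-box helicase that acts on the snR30 particle, was higher by 1.07 ± 0.08, or 2.10-fold. Lower were DHR2 (YKL078W), a DEAH-box helicase, and, by small margins, UTP11 (-0.24 ± 0.10) and ENP1 (-0.20 ± 0.07). DHR2 stood at 3.87, 3.72 and 3.71 in 2% glucose and at 3.22, 2.92 and 3.11 in 0.5% glucose, with no overlap, a difference of -0.68 ± 0.14. Its difference on the spike-in scale was -0.28 (adjusted p = 0.311), and UTP11 and ENP1 turned to 0.16 and 0.20, neither called.

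At 18 h the glucose levels were close. Higher in 0.5% glucose were 4 genes and lower 8 (background 25.5% and 24.8%), with a median of -0.02. The higher 4 were ROK1 (0.29 ± 0.08), KRR1 (0.28 ± 0.08), NOC4 (0.28 ± 0.11) and IMP3 (0.23 ± 0.09). Of the lower 8, BMS1 (-0.40 ± 0.09) and UTP11 (-0.35 ± 0.10) were farthest from 0. NOP1 (0.09 ± 0.09), NOP58 (-0.03 ± 0.10), SNU13 (-0.05 ± 0.11) and NOP56 (-0.14 ± 0.09), which led at 12 h, did not pass the test, and RRP9 was lower at -0.27 ± 0.08. Without replicate 1 of 0.5% glucose at 18 h 1 gene was higher in place of 4. Without replicate 2 of 2% glucose 2 were higher and 5 lower. Without replicate 2 or replicate 3 of 0.5% glucose, or replicate 3 of 2% glucose, 4 or 5 were lower in place of 8. No gene was called in either direction (0 of 42) on the spike-in scale, where limma's unadjusted p was under 0.05 for 3 higher and 0 lower.

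At 24 h the differences went both ways. Higher were 12 genes and lower 11 (background 31.6% and 31.4%), with a median of -0.03. As shares of the processome genes, both counts were slightly under the background. The counts at this time thus did not set the processome genes apart from all genes, and the values below describe single genes. The lower side held NOP56, at 8.15, 8.20 and 8.31 in 2% glucose and 7.36, 7.37 and 7.27 in 0.5% glucose, a difference of -0.89 ± 0.09. It also held DIP2 of UTP-B (-0.73 ± 0.11), UTP9 of UTP-A (-0.56 ± 0.12), UTP11 (-0.49 ± 0.10), BMS1 (-0.46 ± 0.09) and SNU13 (-0.42 ± 0.11). The higher side was led by NOC4 (0.75 ± 0.11), RCL1 (0.63 ± 0.11), UTP8 (0.58 ± 0.10) and UTP22 (0.56 ± 0.08). NOC4 pairs with Nop14 in the particle, Rcl1 is the cyclase-like partner of the GTPase Bms1, and Utp22 also takes part in the CURI complex with casein kinase 2 and Ifh1. BMS1 and its partner RCL1 were thus called in opposite directions at this time. The spike-in scale left 11 genes higher and 1 lower, with a median of 0.24 against 0.27 for all genes on that scale. Without replicate 1 of 2% glucose 7 genes were lower in place of 11.

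At 48 h, the time at which the study design places the largest gain in longevity of those sampled, 40 of the 42 genes were higher in 0.5% glucose and 2 lower (background 46.0% and 37.8%). The median difference was 1.37 against 0.08 for all genes, and 27 genes were higher by at least 2-fold (background 8.72%). In the 40 higher genes the arrays of both glucose levels did not overlap (background 46.6%). Without replicate 3 of 0.5% glucose 40 genes were still higher, with a median of 1.49 and 0 lower. The spike-in scale gave 29 higher and 2 lower, with a median of 0.88 against -0.41 for all genes on that scale.

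UTP6 of UTP-B had the largest difference of the 42 genes at 48 h, followed by SNU13 of the U3 particle, IMP3 of the Mpp10 complex and UTP18 of UTP-B. UTP6 (YDR449C), a helical repeat protein of UTP-B, stood at 3.86, 4.06 and 4.26 in 2% glucose and at 6.71, 6.63 and 6.28 in 0.5% glucose, 2.48 ± 0.13 higher, or 5.60-fold (adjusted p = 6.31e-14). UTP18 (YJL069C), a β-propeller protein of the same subcomplex, stood at 4.07, 4.02 and 4.15 against 6.33, 6.31 and 6.02, a difference of 2.14 ± 0.09. All 6 UTP-B genes were higher, and DIP2 (0.37 ± 0.11) was the least changed of them. IMP3 (YHR148W), which binds U3 RNA and its pre-rRNA target together with Mpp10 and Imp4, stood at 4.74, 4.80 and 4.75 against 7.03, 7.03 and 6.76. Its difference was 2.18 ± 0.09, or 4.52-fold, beside 1.53 ± 0.09 for IMP4 and 0.72 ± 0.07 for MPP10. Subunits of 1 complex therefore differed by unequal amounts.

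SNU13, the U3 snoRNP gene that differed most at 48 h, stood at 6.96, 6.77 and 6.74 in 2% glucose and at 9.30, 9.28 and 8.69 in 0.5% glucose, a difference of 2.27 ± 0.11. RRP9 differed by 1.36 ± 0.08 (5.66, 5.59 and 5.78 against 7.11, 7.11 and 6.88), NOP1 by 1.33 ± 0.09 and NOP58 by 0.90 ± 0.10. NOP56 stood at 7.71, 7.68 and 7.62 against 7.73, 7.44 and 7.13, and UTP10 at 7.11, 7.07 and 7.11 against 7.08, 6.91 and 6.46. In both genes the arrays of the glucose levels overlapped. Their differences of -0.24 ± 0.09 (adjusted p = 0.0213) and -0.28 ± 0.11 (adjusted p = 0.0251) were called lower. Neither call held without replicate 3 of 0.5% glucose (-0.09 and -0.10, adjusted p = 0.281 and 0.311) or without replicate 1 of 2% glucose, and 1 of the 2 calls was lost without replicate 3 of 2% glucose.

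In UTP-A the other 6 genes were higher at 48 h, from NAN1 (0.64 ± 0.08) to UTP8 (1.81 ± 0.10). All 14 single assembly factors were higher, with a median of 1.59. UTP14 stood at 4.89, 5.09 and 5.06 in 2% glucose and at 7.30, 7.02 and 6.69 in 0.5% glucose, a difference of 1.99 ± 0.18. UTP23, which acts in the release of snR30, differed by 1.83 ± 0.07, BFR2 by 1.80 ± 0.14, LCP5 by 1.71 ± 0.15 and NOC4 by 1.69 ± 0.11. ENP1 (YBR247C), which stays with the pre-40S particle on its way to the cytoplasm, stood at 5.44, 5.52 and 5.38 against 7.19, 7.09 and 6.99, a difference of 1.64 ± 0.07. KRR1 (0.48 ± 0.08) and UTP20 (0.50 ± 0.08) differed least.

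BMS1 (YPL217C) stood at 7.36, 7.46 and 7.49 in 2% glucose and at 8.99, 8.74 and 8.56 in 0.5% glucose at 48 h, a difference of 1.33 ± 0.09. RCL1 differed by 1.58 ± 0.11 and EMG1 by 1.39 ± 0.10. All 4 helicases were higher. DHR2, lower at 12 h, stood at 3.63, 3.52 and 3.43 against 5.13, 5.04 and 4.73, a difference of 1.44 ± 0.14. DBP8, a DEAD-box helicase that works with Esf2, differed by 1.21 ± 0.07, ROK1 by 0.82 ± 0.08, and ECM16 (Dhr1), which strips U3 from the pre-rRNA, by 0.63 ± 0.09.

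**Figure D2:**
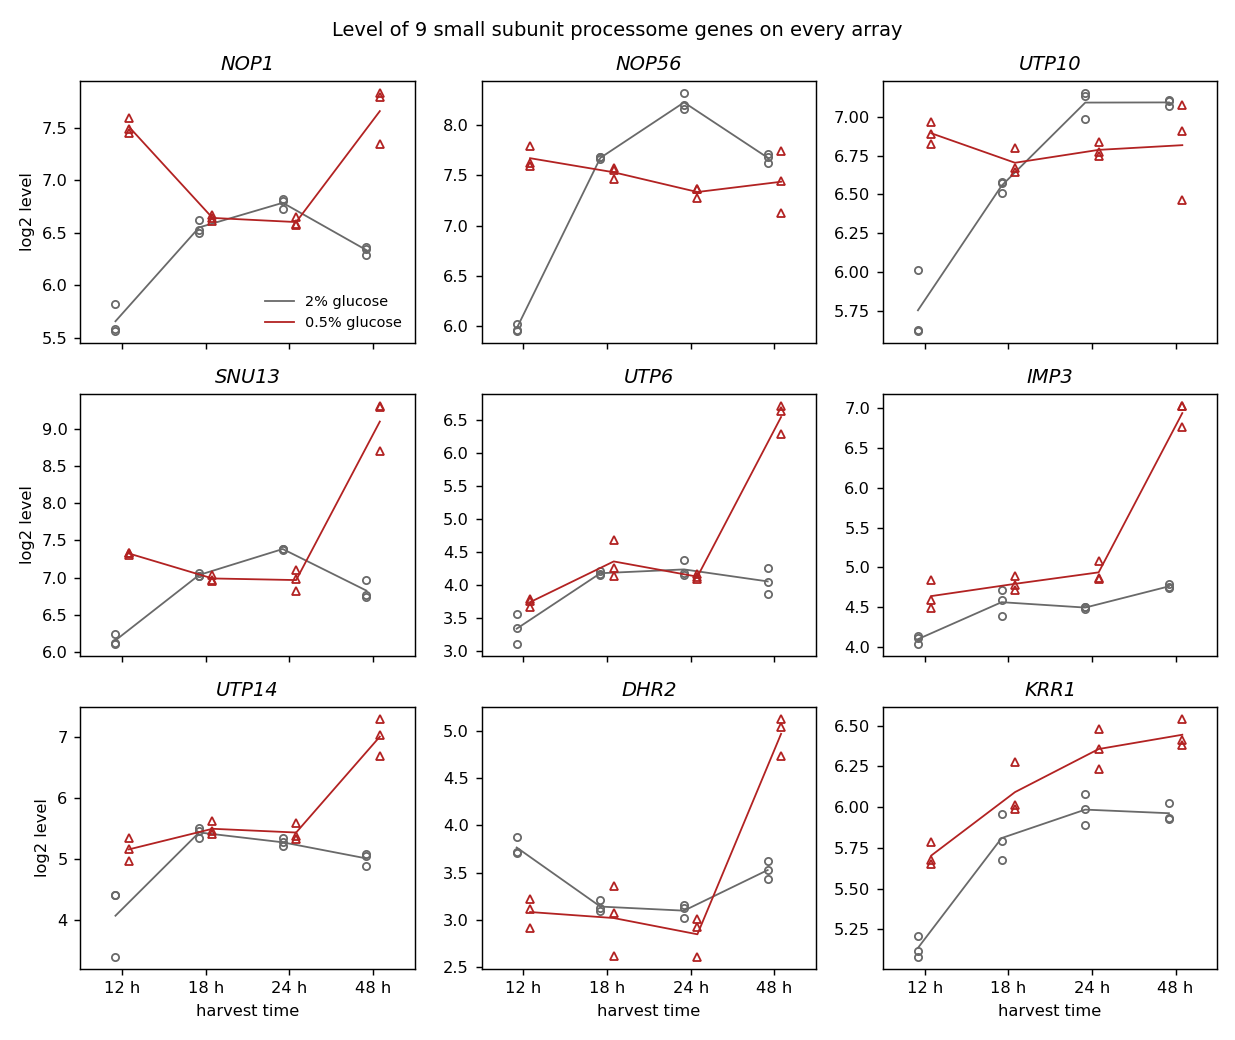
Log2 level (vertical axis, its range set for each gene) of 9 processome genes at each harvest time on all 24 arrays, with circles for 2% glucose, triangles for 0.5% glucose, and lines through the group means. SNU13, UTP6, IMP3, UTP14 and DHR2 are highest in 0.5% glucose at 48 h on all 3 arrays, NOP1 is high in 0.5% glucose at both 12 h and 48 h, and NOP56 and UTP10 overlap between the glucose levels at 48 h.

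The glucose effect differed between the times in 41 of the 42 genes by limma's F test (background 91.7%), and KRR1 was the exception (adjusted p = 0.103). That share, 97.6%, was near the background, so the count does not set the processome genes apart from all genes. KRR1, a KH-domain protein, was higher in 0.5% glucose at each time, by 0.57, 0.28, 0.37 and 0.48. From 12 h to 18 h the effect fell in 27 genes and rose in 1, DHR2 (background 24.5% and 32.5%). The rise of DHR2, by 0.56 ± 0.19, was not called without replicate 2 of 0.5% glucose at 12 h or without replicate 1 of 0.5% glucose at 18 h. From 18 h to 24 h it rose in 6 genes and fell in 3 (background 13.7% and 14.1%). The 3 were NOP56, UTP10 and DIP2, and leaving out any of 5 arrays left 1 of them, as set out in the closing section. From 24 h to 48 h it rose in 40 genes and fell in 0 (background 39.5% and 35.2%), with UTP10 and KRR1 not called. No estimate was below 0 (lowest 0.03), so limma's unadjusted p gave 0 falling as well. The last count was, with spike-in scaling, 18 higher and 1 lower.

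The size of the effect in single genes differed between 12 h and 48 h. Compared with 12 h, the effect at 48 h was higher in 31 genes and lower in 6 (background 43.8% and 36.1%). The lower 6 were NOP56 (-1.93 ± 0.13), UTP10 (-1.42 ± 0.16), NOP58 (-0.73 ± 0.14), NOP1 (-0.53 ± 0.13), DIP2 (-0.53 ± 0.16) and ROK1 (-0.25 ± 0.11). The higher 31 were led by DHR2 (2.12 ± 0.19), UTP6 (2.08 ± 0.18), UTP18 (2.07 ± 0.13) and ENP1 (1.84 ± 0.09). Across the 42 genes the effects at both times, which share no arrays, had a Pearson correlation of -0.269 and a Spearman correlation of -0.224, against 0.149 and 0.096 across all genes. Genes are not independent replicates, and these values are a description. With spike-in scaling 9 genes had a higher and 10 a lower effect at 48 h than at 12 h.

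**Figure D3:**
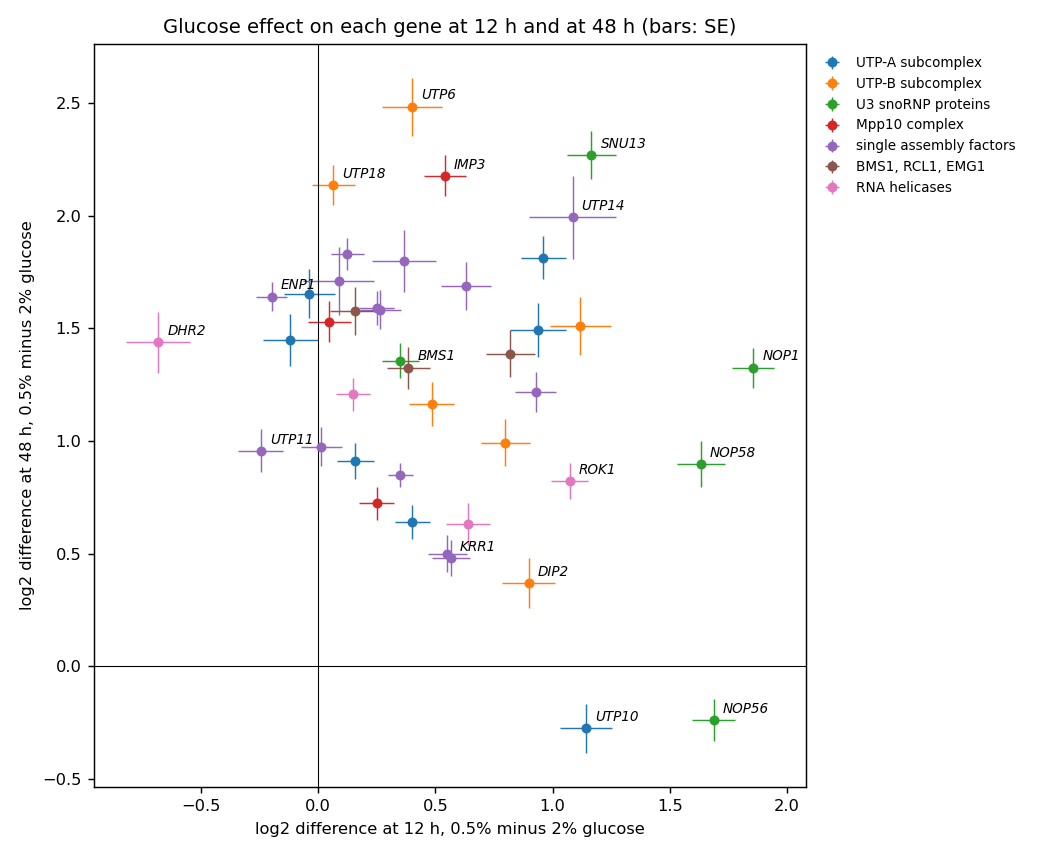
Glucose effect (log2 difference, 0.5% minus 2% glucose) at 12 h on the horizontal axis and at 48 h on the vertical axis for each of the 42 processome genes, coloured by subcomplex, with bars for the standard error. The U3 snoRNP genes NOP1, NOP56 and NOP58 lie far to the right, UTP6, SNU13, IMP3 and UTP18 lie at the top, and NOP56 and UTP10 alone lie below 0 at 48 h.

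The time course within each glucose level shows over which intervals the levels changed after 12 h. The difference at 12 h was present at the first harvest, so its origin lies outside these data. In 2% glucose, from 12 h to 18 h, 30 genes rose and 5 fell (background 30.5% and 37.9%), with a median of 0.67, and 10 rose by at least 2-fold (background 3.76%). NOP56 rose by 1.69 ± 0.09, from 5.95, 6.02 and 5.97 to 7.66, 7.68 and 7.68. UTP13 rose by 1.51 ± 0.13, NOP58 by 1.45 ± 0.10, UTP14 by 1.36 ± 0.18, ENP2 by 1.35 ± 0.09 and DIP2 by 1.33 ± 0.11. The 5 that fell were DHR2 (-0.62 ± 0.14), LCP5 (-0.47 ± 0.15), UTP23 (-0.39 ± 0.07), IMP4 (-0.27 ± 0.09) and UTP18 (-0.23 ± 0.09). Without replicate 2 of 2% glucose at 12 h 3 genes fell. With spike-in scaling 23 rose and 1 fell, with a median of 0.73 against 0.02 for all genes.

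Over the same interval in 0.5% glucose 13 genes rose and 9 fell (background 30.0% and 30.2%), with a median of 0.05. NOP1 fell by 0.87, from 7.59, 7.45 and 7.49 to 6.67, 6.61 and 6.64, and EMG1 fell by 0.43. UTP6 rose by 0.62 ± 0.13 and BFR2 by 0.53 ± 0.14. On the spike-in scale 0 rose and 4 fell. From 18 h to 24 h 10 genes rose and 4 fell in 2% glucose (background 25.2% and 24.5%), led by UTP9 (0.81 ± 0.12), and 2 fell without replicate 1 at 18 h or replicate 2 at 24 h. In 0.5% glucose 11 rose and 1, UTP30, fell (background 24.6% and 24.1%), and 3 fell without replicate 3 at 18 h, or with the 0.5% glucose 48 h arrays left out of the fit. On the spike-in scale 0 genes rose and 2 fell in 2% glucose, and 0 did either in 0.5% glucose.

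The last interval separated the glucose levels. In 0.5% glucose 39 genes rose from 24 h to 48 h and 0 fell (background 45.8% and 39.4%), with a median of 1.40 against 0.07 for all genes, and 28 rose by at least 2-fold (background 12.3%). The lowest of the 42 changes was 0.03, so the unadjusted p of limma gave 0 falling too. UTP18 rose by 2.42 ± 0.09, from 3.73, 3.64 and 4.04, and UTP6 by 2.41 ± 0.13, from 4.17, 4.12 and 4.10. IMP4 and SNU13 each rose by 2.13, BMS1 by 2.10 ± 0.09 and RRP9 by 2.03 ± 0.08. DHR2 stood at 3.01, 2.92 and 2.61 at 24 h and rose by 2.12 ± 0.14. UTP10 (0.03 ± 0.11), KRR1 (0.09 ± 0.08) and NOP56 (0.10 ± 0.09) did not pass the test. With spike-in scaling 26 genes rose and 3 fell, with a median of 0.77 against -0.56 for all genes.

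In 2% glucose 15 genes rose over that interval and 7 fell (background 31.5% and 30.4%), with a median of 0.03. Among the 7 were the 4 core proteins of box C/D particles, SNU13 (-0.56 ± 0.11), NOP56 (-0.55 ± 0.09), NOP58 (-0.54 ± 0.10) and NOP1 (-0.45 ± 0.09). The U3-specific RRP9 rose by 0.60 ± 0.08. UTP22 (0.80 ± 0.08), DBP8 (0.76 ± 0.07) and IMP4 (0.66 ± 0.09) rose most. The spike-in scale gave 4 rising and 0 falling.

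The 42 genes differed in how closely they followed each other. Over the 8 group means the correlation of a gene with the mean standardised profile of the other 41 ran from 0.353 for NOP56 to 0.978 for UTP5, with a median of 0.881 and 33 genes above 0.8. Much of this rested on 1 group. Without 0.5% glucose at 48 h the 7 remaining groups gave a median of 0.751 and a range from -0.598 to 0.94, with 16 genes above 0.8 and 5 below 0. The 5 were DHR2, UTP30, UTP23, LCP5 and UTP11. UTP10 and NOP56, far from the others over 8 groups, were at 0.934 and 0.856 over 7. These correlations are descriptions over a few group means that share the same arrays.

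Other genes of the pathway were counted in the same fit. The background for these counts was 46.0% of all genes higher and 37.8% lower at 48 h, and 32.2% and 41.2% at 12 h. Of 26 further small subunit processome factors 23 were higher and 1 lower at 48 h (median 1.12), and 14 were higher and 3 lower at 12 h. NSR1, yeast nucleolin, differed by 2.36 ± 0.12 at 48 h, and NOP14, the partner of Noc4, by 1.32 ± 0.12 at 12 h. Of 13 late 40S maturation factors 7 were higher and 3 lower at 12 h, and 9 were higher and 2 lower at 48 h (median 0.61). DIM1, the dimethylase of 18S RNA, differed by 1.42 ± 0.08 and PNO1 by 1.27 ± 0.07. Of the 4 H/ACA snoRNP proteins, the pseudouridylation counterparts of the box C/D proteins, 3 were higher at 12 h and 4 at 48 h. The 3 at 12 h were GAR1 (1.45 ± 0.10), CBF5 (1.22 ± 0.09) and NHP2 (0.50 ± 0.07). The casein kinase 2 subunits that form UTP-C, which also serve many other substrates, had 3 of 4 higher and 1 lower at 12 h. At 48 h 1 of the 4 was higher, CKB2 at 0.26 ± 0.05.

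The 65 factors of 60S subunit assembly had a similar course to the 42 genes, with medians of 0.54, -0.02, -0.05 and 1.12 at the 4 times. At 48 h 60 of them were higher and 3 lower (background 46.0% and 37.8%). The 36 subunits and factors of RNA polymerases I and III had medians of 0.00, -0.06, -0.14 and 0.58. The 53 measured genes for small subunit ribosomal proteins had another course. All 53 were higher at 12 h (background 32.2%), with a median of 1.46 against 0.40 for the processome genes. At 48 h 51 were higher (background 46.0%), with a median of 0.65 against 1.37. RPS14B, a gene for ribosomal protein S14, differed most of them, at 6.78 in 2% and 9.96 in 0.5% glucose at 48 h (3.18 ± 0.09). The differences between these lists were not tested.

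**Figure D4:**
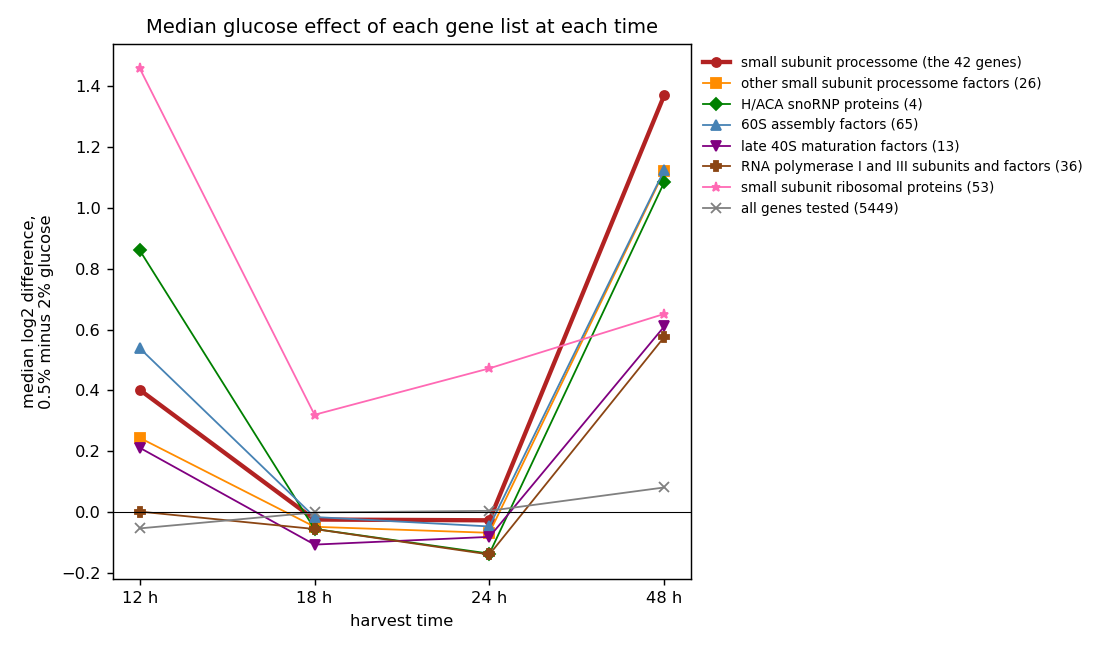
Median log2 difference (0.5% minus 2% glucose, vertical axis) of the 42 processome genes and of 7 comparison sets, all genes tested among them, at each harvest time, with the number of genes in the key. The processome line runs from 0.40 at 12 h through values near 0 at 18 h and 24 h to 1.37 at 48 h, while the small subunit ribosomal proteins run from 1.46 to 0.65.

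Known regulators of these genes moved at the level of their own transcripts. Sfp1 is an activator of ribosome biogenesis genes, and SFP1 was lower in 0.5% glucose at 12 h (-0.40 ± 0.06) and higher at 48 h (0.17 ± 0.06). Stb3, Dot6 and Tod6 are repressors that bind the promoters of such genes. At 12 h they were all lower in 0.5% glucose, STB3 by -0.47 ± 0.05, DOT6 by -0.67 ± 0.04 and TOD6 by -0.80 ± 0.11. At 18 h DOT6 (-0.50 ± 0.04), TOD6 (-0.41 ± 0.11) and STB3 (-0.12 ± 0.05) were lower as well. At 24 h DOT6 was lower (-0.74 ± 0.04), and STB3 (-0.09 ± 0.05) and TOD6 (0.08 ± 0.11) did not pass the test. SFP1 did not pass it at 18 h (-0.11 ± 0.06) or at 24 h (-0.02 ± 0.06). The median of the 42 genes was near 0 at both of these times. A part of these transcripts in the course of the 42 genes was not tested. At 48 h STB3 (-0.62 ± 0.05) and DOT6 (-0.35 ± 0.04) were lower, and TOD6 was higher, at 1.21 ± 0.11. Of the 8 groups TOD6 too had its highest level in 0.5% glucose at 48 h (7.13 to 7.58). Of all 11 regulators 3 were higher and 7 lower at 12 h (background 32.2% and 41.2%). At 48 h 7 were higher and 3 lower (background 46.0% and 37.8%). IFH1 and FHL1, activators of ribosomal protein genes, differed by 1.25 ± 0.08 and 1.27 ± 0.07 at 48 h.

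The 10 genes outside the list whose 8 group means most resembled the mean profile of the 42 genes had Pearson correlations of 0.983 to 0.994. They were NST1, PUF6, BUD21, RTT10, MAK16, SPB1, RLP7, RPF2, RPA49 and NOP4. Of these BUD21 is itself a processome factor, 6 are factors of 60S assembly (PUF6, MAK16, SPB1, RLP7, RPF2 and NOP4), and RPA49 is a subunit of RNA polymerase I. NST1 and RTT10 were on none of the lists, and they differed at 48 h by 1.41 ± 0.09 and 1.73 ± 0.10. Both were picked on the same arrays for their likeness to that profile, so a difference at 48 h is no separate result.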

How the data were processed

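RNA of 24 samples was measured on Affymetrix Yeast Genome 2.0 arrays, from 250 ng of total RNA each, per the labels. The sample titles do not say whether the same culture was harvested at several times. The deposited values are on a log2 scale and share 1 distribution on all arrays (0.60 to 12.57), so the authors had normalized them between arrays. Scale and normalization were inferred from the values. The submitters' processing notes name Partek. The sources used here do not give the background correction or the summarization. Probe sets of 1 S. cerevisiae gene (5498 of 10928) were named from the platform annotation, with 12 symbols updated, and the brightest stood for each of 5449 genes. All 42 members matched.

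The 8 groups entered 1 linear model in limma 3.58.1 (R 4.3.3) without covariates, with Benjamini-Hochberg adjustment over all genes, and the fit was tested on simulated data. The contrasts were 0.5% minus 2% glucose at each time, successive times within a glucose level, and differences between effects. Figures used matplotlib 3.10.9 under python 3.11.15, with pandas 2.3.3 and numpy 2.4.6. The median SD within a group was 0.0799 over all genes and 0.124 over the members, and the number of arrays limits the precision. Arrays of a group correlated at 0.994 to 0.999, and none was a copy of another.

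All members could be named, with values on every array for those with the largest and smallest changes and for leading genes of each subcomplex, at most 3 genes of any other list, those with the largest moderated statistic, 4 regulators, and the 10 most similar genes. Members and lists were chosen with earlier results of these data known. The spread of same-numbered arrays was checked for pairing, with residual correlations above 0.1 in every pair as the rule. It was met for the glucose effects at 12, 18 and 24 h and the 12 h to 18 h step in 2% glucose (lowest 0.109), so the replicate block was an alternative. Alternatives were other normalizations, the spike-in scale, removal of dim probe sets, array weights, other variance models, only the arrays compared, and leaving out each array. Promoter sequences were not used here.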

Additional observations from a re-analysis of the deposited data

Results flagged for a closer look

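The glucose effect differed between times in 41 of the 42 genes by limma's F test, as it did in 91.7% of all genes. From 12 h to 18 h the effect rose in 1 gene and fell in 27 (32.5% and 24.5% of all genes). From 18 h to 24 h it rose in 6 and fell in 3, near or under the shares of all genes (13.7% and 14.1%). From 24 h to 48 h it rose in 40 and fell in 0 (39.5% and 35.2%), and between 12 h and 48 h it rose in 31 and fell in 6 (43.8% and 36.1%).

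Several genes were called in opposite directions at 2 times, with the difference between the times called as well. Most of these calls ended on the spike-in scale, where 0 genes were so called between 12 h and 18 h or between 24 h and 48 h, and 2 between 12 h and 48 h, NOP56 and UTP10. Of all genes on that scale, 0.0918% went from higher to lower between 12 h and 18 h. From lower to higher between 24 h and 48 h went 0.0184%. The loss of these calls thus does not set the processome genes apart. Between 12 h and 48 h 15.5% of all genes went from higher to lower, the direction of NOP56 and UTP10. Between 12 h and 18 h, 6 genes went from higher to lower in 0.5% glucose (2.75% of all genes), with differences of -1.18 for DIP2, -0.62 for RRP9, -0.48 for SOF1, -0.70 for BFR2, -0.78 for BMS1 and -0.88 for ECM16. Between 24 h and 48 h, 9 genes went from lower to higher (8.61% of all genes), with differences of 2.00 for UTP9, 1.10 for DIP2, 1.20 for NOP58, 2.69 for SNU13, 1.44 for UTP11, 0.74 for UTP20, 1.24 for UTP30, 1.79 for BMS1 and 0.89 for ECM16. DIP2, BMS1 and ECM16 were in both sets, higher at 12 h, lower at 18 h and 24 h, and higher again at 48 h. Between 12 h and 48 h, NOP56 (-1.93) and UTP10 (-1.42) went from higher to lower (12.2% of all genes), while UTP11 (1.20), ENP1 (1.84) and DHR2 (2.12) went from lower to higher (17.4% of all genes). The lower calls of NOP56 and UTP10 at 48 h were lost without replicate 3 of 0.5% glucose (-0.09 and -0.10, adjusted p of limma 0.281 and 0.311) or without replicate 1 of 2% glucose, and that of UTP10 also without replicate 3 of 2% glucose. On the spike-in scale the differences of UTP11 and ENP1 at 12 h turned to 0.16 and 0.20 and that of DHR2 was -0.28, none of them called. The lower call of UTP11 at 12 h was also lost without any 1 of 4 arrays, and that of ENP1 without replicate 3 of 0.5% glucose.

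Outside the genes tested, the control probe set for the 3′ part of 18S ribosomal RNA, the product of the processome, was brightest in 0.5% glucose at 48 h, with a mean of 9.37 (8.85 to 10.01). In 2% glucose its means were 6.55, 7.93, 8.19 and 7.07 at the 4 times, and in 0.5% glucose 6.54, 6.71 and 6.08 at the first 3. The probe set for the 5′ part had means of 11.97 to 12.31 over the 8 groups. How the label was primed is not given in the sources used here, so these signals are no measure of the amount of ribosomal RNA.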

How the results depend on the processing

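Of the results for single genes (42 genes in 14 contrasts, 588 in all), 588 kept direction and call when dim probe sets were left out or a gene's probe sets were averaged, 583 with repeated quantile normalization, 586 with centring, 584 with a variance trend, 576 with the replicate block, 548 with array weights, 544 where just the arrays compared entered the fit, and 392 on the spike-in scale. Except on the spike-in scale, none of these changed direction. The scale itself has few probe sets and a wide spread between arrays, and the cause of its changes was not tested. Leaving out dim probe sets or averaging could hardly change a result here. Each of the 42 genes had 1 probe set, and all lay above background on every array. Repeated quantile normalization and centring could change little either, since the arrays already shared 1 distribution. The agreement in these settings was thus largely fixed in advance. The promoter comparison that had been planned was not run, since no promoter sequences were used here.

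On the spike-in scale the median glucose effects from 12 h to 48 h were 0.804, 0.136, 0.239 and 0.881. The genes lower were 0, 0, 1 and 2 at these times, and those higher at 18 h were 0. In 2% glucose the step from 12 h to 18 h had 1 gene lower. That from 18 h to 24 h had 0 higher and 2 lower (median -0.216), and that from 24 h to 48 h had 4 higher and 0 lower (median 0.154). In 0.5% glucose these steps had 0 higher and 4 lower (median -0.143), 0 and 0 (median -0.102), and 3 lower (median 0.769). For the difference between effects, 18 h minus 12 h had 0 higher (median -0.665), 24 h minus 18 h had 0 higher and 0 lower (median 0.127), 48 h minus 24 h had 18 higher and 1 lower (median 0.505), and 48 h minus 12 h had 9 higher and 10 lower (median 0.032). Where a count on this scale is 0, limma's unadjusted p under 0.05 gave 0 to 3 genes in that direction. Past the F test on this scale were 30 genes (60.5% of all genes). Without the 48 h arrays 30 passed, or about the share of all genes (70.7%).

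Directions turned for these genes on the spike-in scale. At 12 h UTP11 was at 0.157 and ENP1 at 0.203. At 24 h UTP20 was at 0.03, UTP30 at 0.003 and ECM16 at 0.007. At 48 h DIP2 was at -0.121 and KRR1 at -0.009. From 18 h to 24 h in 2% glucose NOP1 was at -0.024 and IMP4 at -0.035. From 24 h to 48 h in 0.5% glucose UTP10 was at -0.603, NOP56 at -0.531, KRR1 at -0.545, MPP10 at -0.289 and ROK1 at -0.141. For 48 h minus 24 h UTP10 was at -0.727, NAN1 at -0.187, NOP56 at -0.107, MPP10 at -0.34, UTP7 at -0.192, UTP20 at -0.021 and ROK1 at -0.413. For 48 h minus 12 h UTP4 was at -0.335, UTP5 at -0.138, UTP8 at -0.038, NAN1 at -0.653, PWP2 at -0.211, UTP21 at -0.697, MPP10 at -0.417, UTP7 at -0.393, ENP2 at -0.599 and EMG1 at -0.324.

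Array weights gave 7 genes lower from 18 h to 24 h in 2% glucose and 3 in 0.5% glucose, 5 lower for 24 h minus 18 h, and a median of 1.049 for 48 h minus 12 h. With only the arrays compared, which leaves fewer arrays for the spread, these 3 counts were 8, 3 and 7, and 0 genes were lower at 48 h. With the replicate block 2 genes were lower from 18 h to 24 h in 0.5% glucose in place of 1, and the block moved no other count by over 1.5 times. Leaving the 0.5% glucose 48 h arrays out of the fit, chosen after the data had been seen, gave 3 genes lower there and moved no other count of the other contrasts by that much.

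With 1 array left out, the genes higher at 12 h were 27 to 30 and those lower 1 to 4. At 18 h they were 1 to 5 and 4 to 8, at 24 h 12 and 7 to 11, and at 48 h 40 and 0 to 2, with a median of 1.329 to 1.493 at 48 h. In 2% glucose 3 to 5 were lower from 12 h to 18 h and 2 to 4 from 18 h to 24 h. In 0.5% glucose 1 to 3 were lower from 18 h to 24 h, and the median from 24 h to 48 h was 1.34 to 1.524. For 18 h minus 12 h 0 to 1 were higher. For 24 h minus 18 h 3 to 6 were higher and 1 to 3 lower, with 1 lower without replicate 1 of 0.5% glucose at 18 h, replicate 2 of 0.5% glucose at 24 h, replicate 2 of 2% glucose at 18 h, or replicate 1 or 2 of 2% glucose at 24 h, and 3 higher without replicate 2 of 0.5% glucose at 18 h. The median of 48 h minus 24 h was 1.203 to 1.4 and that of 48 h minus 12 h 0.811 to 1.027. The 1 lower at 12 h came without replicate 3 of 0.5% glucose.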

Other observations

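The control probe set for 5.8S ribosomal RNA, which is cut from the same precursor as 18S RNA, had group means of 8.84, 9.14, 9.31 and 9.65 in 2% glucose at 12, 18, 24 and 48 h, and of 9.64, 9.62, 9.80 and 10.67 in 0.5% glucose. The 3 arrays of 0.5% glucose at 48 h (10.58 to 10.77) lay above those of all other groups, as they did in 30.6% of all genes. The probe set was not part of the fit. Since the priming of the label is not given, this signal is no measure of the amount of ribosomal RNA.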
